A study of Mus musculus with 20 samples.

Results

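The sites described here are positions in young mouse liver where a Setdb1 peak overlapped a Kap1 peak by 1 bp or more and touched no base of a peak of histone H3 acetylated at lysine 14 (H3K14ac). On chromosomes 1 to 19, 876 of 49271 young Setdb1 peaks met this rule, or 1.78%. Of the others, 47909 met neither Kap1 nor H3K14ac, 151 met both and 335 met H3K14ac alone. The members were chosen by overlap between the young peak lists, so the overlap itself is a description and not a result. Over all chromosomes the young list held 50583 Setdb1 peaks.

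All livers were those of male C57BL/6 mice, wild type, and were snap-frozen. ChIP-Seq was done for Setdb1 and Kap1 (rabbit polyclonal antibodies) and for H3K14ac. Young livers came from animals of 3 months and old livers from animals of 21 months, with no other treatment or genotype in any group. The reads of 3 livers per age (Setdb1, H3K14ac) or 2 livers per age (Kap1) were merged before peaks were called, so each antibody and age has 1 list. The lists give positions only: the depth behind a peak is unknown, no spread between livers can be given, and shares below carry 95% Wilson intervals that cover counting error only. The tissue is whole liver, in which a site bound in few cells and a site bound weakly in many cells cannot be told apart. On chromosomes 1 to 19 the lists held 49271 Setdb1, 47084 Kap1 and 18885 H3K14ac peaks in young liver, and 13678, 21390 and 20120 in old liver, so that the old lists of both factors were the shorter ones.

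Setdb1 is a methyltransferase that places methyl groups on lysine 9 of histone H3, a mark of silent chromatin. Kap1, the product of Trim28, is a scaffold protein that is brought to DNA by zinc finger proteins with a KRAB domain and that recruits Setdb1 in turn. The pair is best known for silencing transposable elements, clusters of zinc finger genes and imprinted loci, while H3K14ac usually marks active genes and is bound by a domain of Setdb1 itself.

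The sequences of 9 sites show the kinds of DNA found at the shared sites. They were read from the NCBI GRCm38 reference, 5′ to 3′, and capitals mark the bases that the Setdb1 peak shared with the young Kap1 peak. The first 4 are shown because each met an old Kap1 peak and an old Setdb1 peak.
chr4:147448450-147448649 (+ strand, intron of the long non-coding RNA genes C230088H06Rik and Gm26624): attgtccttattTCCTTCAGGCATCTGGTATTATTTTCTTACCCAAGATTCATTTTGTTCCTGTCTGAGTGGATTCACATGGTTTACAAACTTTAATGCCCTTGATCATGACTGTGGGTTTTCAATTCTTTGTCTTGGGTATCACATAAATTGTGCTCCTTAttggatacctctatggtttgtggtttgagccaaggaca
chr4:147605365-147605564 (+ strand, between genes, 36944 bp from the start of Zfp979): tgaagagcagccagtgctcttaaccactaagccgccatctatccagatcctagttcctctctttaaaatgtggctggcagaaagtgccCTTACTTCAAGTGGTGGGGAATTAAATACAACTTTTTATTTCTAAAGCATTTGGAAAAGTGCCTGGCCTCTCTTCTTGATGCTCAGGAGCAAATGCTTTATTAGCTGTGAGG
chr7:104772007-104772206 (+ strand, intron of Usp17le): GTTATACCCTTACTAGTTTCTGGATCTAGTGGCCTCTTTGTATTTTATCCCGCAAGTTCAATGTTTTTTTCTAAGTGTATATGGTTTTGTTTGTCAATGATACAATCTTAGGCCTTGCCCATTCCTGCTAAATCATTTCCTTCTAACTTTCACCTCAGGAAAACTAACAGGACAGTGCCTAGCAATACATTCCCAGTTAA
chr3:106234613-106234812 (+ strand, between genes, 15106 bp from the start of Chil4): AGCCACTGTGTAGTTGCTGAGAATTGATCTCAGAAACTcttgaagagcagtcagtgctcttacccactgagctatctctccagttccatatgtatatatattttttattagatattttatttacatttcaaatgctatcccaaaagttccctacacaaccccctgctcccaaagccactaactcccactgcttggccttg
The next pair lay at start sites rich in CpG, and the pair after it at chemosensory receptor genes. The last is from a block at the start of chromosome 9 where nearly every word of the sequence recurs.
chr5:147306792-147306991 (+ strand, 279 bp from the start of Cdx2): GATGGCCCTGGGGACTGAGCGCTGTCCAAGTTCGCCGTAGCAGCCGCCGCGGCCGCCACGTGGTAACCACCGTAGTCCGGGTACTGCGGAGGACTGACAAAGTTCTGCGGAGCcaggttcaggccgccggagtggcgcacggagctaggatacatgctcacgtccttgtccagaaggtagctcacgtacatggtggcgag
chr15:43170207-43170406 (+ strand, 412 bp from the start of Rspo2): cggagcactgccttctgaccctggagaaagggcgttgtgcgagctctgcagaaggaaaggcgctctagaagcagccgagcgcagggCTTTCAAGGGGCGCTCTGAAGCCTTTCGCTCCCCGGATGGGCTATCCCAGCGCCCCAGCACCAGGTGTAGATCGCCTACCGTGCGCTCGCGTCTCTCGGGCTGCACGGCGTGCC
chr7:6438710-6438909 (+ strand, 22 bp from the start of Olfr1344): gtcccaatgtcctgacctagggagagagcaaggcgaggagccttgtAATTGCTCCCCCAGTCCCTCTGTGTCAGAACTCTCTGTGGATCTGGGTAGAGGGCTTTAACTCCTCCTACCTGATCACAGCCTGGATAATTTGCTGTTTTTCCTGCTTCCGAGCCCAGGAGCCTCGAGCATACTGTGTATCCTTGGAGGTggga
chr13:22179152-22179351 (+ strand, 231 bp from the start of Vmn1r191): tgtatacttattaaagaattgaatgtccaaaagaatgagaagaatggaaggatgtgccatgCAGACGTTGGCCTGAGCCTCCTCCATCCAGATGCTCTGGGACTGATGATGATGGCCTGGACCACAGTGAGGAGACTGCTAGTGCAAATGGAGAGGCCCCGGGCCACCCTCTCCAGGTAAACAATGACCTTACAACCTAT
chr9:3016088-3016287 (+ strand, 434 bp from the start of Gm10720, in the long non-coding RNA gene Gm26870): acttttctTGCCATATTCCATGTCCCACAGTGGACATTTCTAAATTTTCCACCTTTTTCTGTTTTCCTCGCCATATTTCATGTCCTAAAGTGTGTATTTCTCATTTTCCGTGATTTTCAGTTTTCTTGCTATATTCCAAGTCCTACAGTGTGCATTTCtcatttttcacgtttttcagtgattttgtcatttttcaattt

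The shared sites were small. A width of exactly 200 bp was found for 734 of them, and 142 (16.2%, 13.9% to 18.8%) were wider, against 2.77% of all young Setdb1 peaks. The widest reached 1516 bp. The Kap1 partners numbered 881, of which 720 were 150 bp wide and the widest 4473 bp. Most sites, 871, met a single Kap1 peak and 5 met 2 or 3. The median overlap was 114 bp (quartiles 66.8 and 150.0), 172 sites held a whole Kap1 peak and 36 lay wholly inside one. At the edge of the rule, 38 sites shared 10 bp or less and 3 of these shared 1 bp, while 36 Setdb1 peaks just outside had a Kap1 peak within 10 bp and 1 of them touched it. On the H3K14ac side, the closest member lay 2 bp from an H3K14ac peak, 10 members had one within 100 bp, and the smallest overlap among the 151 peaks left out was 16 bp.

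Around the 48785 young Setdb1 peaks without H3K14ac, Kap1 midpoints were densest at the Setdb1 peak itself. Within 200 bp of the Setdb1 midpoint lay 897 young Kap1 midpoints, against a mean of 543 in windows of the same total width 400 to 2000 bp away, a ratio of 1.65. The flanking bins ranged from 251 to 306. Kap1 peaks were thus also common beside these Setdb1 peaks, and positions alone do not tell which members belong to that surrounding level. Old Kap1 midpoints numbered 433 at the centre against 254 beside it (ratio 1.71), and old Setdb1 midpoints 373 against 149.6 (ratio 2.49). For old H3K14ac the counts were 203 and 142, a ratio of 1.43.

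**Figure D1:**
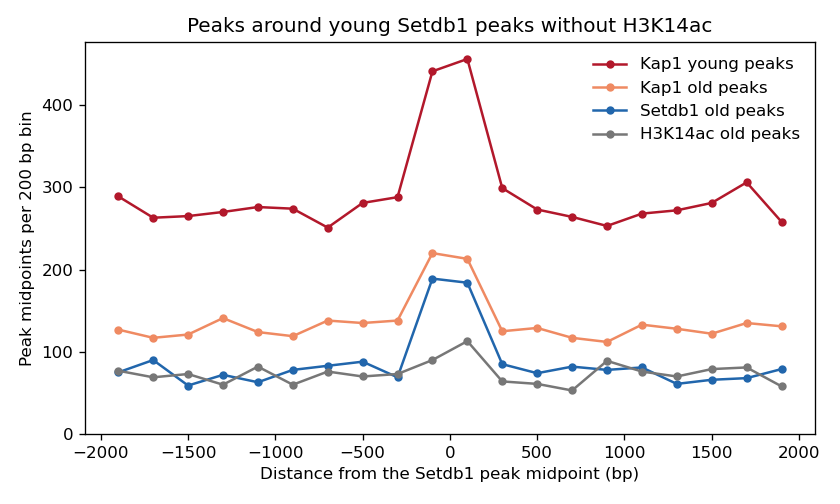
Number of peak midpoints per 200 bp bin (y axis) by distance from the midpoint of a young Setdb1 peak in bp (x axis), over the 48785 young Setdb1 peaks on chromosomes 1 to 19 without H3K14ac; each line is 1 peak list. All 4 lines are highest at the Setdb1 peak, and the young Kap1 line runs between 251 and 306 beside it.

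The shared sites met peaks of old liver at shares above those of the whole young Setdb1 list and below those of the 151 young Setdb1 peaks that met both Kap1 and H3K14ac, of which 67.5% were wider than 200 bp. An old Kap1 peak lay at 121 of 876 shared sites (13.8%, 11.7% to 16.3%), against 1.13% of all young Setdb1 peaks 0.653% (0.585% to 0.730%) of those with neither Kap1 nor H3K14ac and 67.5% (59.7% to 74.5%) of those with both. An old Setdb1 peak lay at 30 sites (3.42%, 2.41% to 4.85%), against 0.869% of all young Setdb1 peaks and 27.2% (20.7% to 34.7%) of those with both. An old H3K14ac peak lay at 42 sites (4.79%, 3.57% to 6.42%), against 0.859% of all young Setdb1 peaks and 58.9% (51.0% to 66.5%) of those with both. By the rule, no member had a young H3K14ac peak and each of the 151 had one. At 707 sites (80.7%) none of the old lists had a peak. At least 1 old list had one at 19.3% (16.8% to 22.0%) of the shared sites. This share was 2.51% for all young Setdb1 peaks and 76.2% (68.8% to 82.3%) for those with both. Scored over Kap1 peaks, it was 18.7% (16.3% to 21.4%) for the Kap1 partners and 10.3% for all young Kap1 peaks. The intervals of the members and of all young Setdb1 peaks did not overlap for any of the 3 old lists. No test across livers is possible for these pooled lists.

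**Figure D2:**
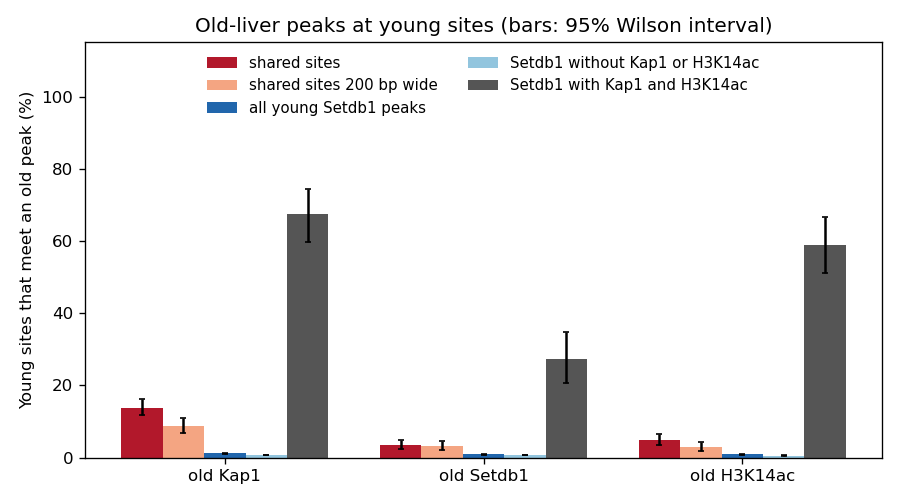
Share of young sites (y axis, %) that met an old Kap1, old Setdb1 or old H3K14ac peak (x axis), for the 876 shared sites, the 734 of them that are 200 bp wide, all young Setdb1 peaks, those with neither Kap1 nor H3K14ac and the 151 with both; error bars are 95% Wilson intervals. The peaks with both stand highest in each group of bars, with 67.5% for old Kap1, and the shared sites come next at 13.8%.

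Peak width moved with the old Kap1 share. Among sites 200 bp wide, 64 of 734 (8.72%, 6.89% to 11.0%) met an old Kap1 peak, against 0.766% of all young Setdb1 peaks of that width and 26.5% (16.2% to 40.3%) of the 49 of that width with both Kap1 and H3K14ac. Among wider sites it was 57 of 142 (40.1%, 32.4% to 48.4%), against 13.8% (12% to 15.7%) of all wider young Setdb1 peaks. Old H3K14ac also moved with width: it lay at 2.86% (1.88% to 4.33%) of the sites 200 bp wide, against 0.603% of all young Setdb1 peaks of that width, and at 14.8% (9.88% to 21.6%) of the wider sites, against 9.82% (8.35% to 11.5%). For those 49 peaks the old H3K14ac share was also 26.5%. Old Setdb1 lay at 3.13% (2.10% to 4.66%) of the sites 200 bp wide, against 0.766%, with 8.16% (3.22% to 19.2%) of the 49, an interval that overlaps that of the members. Among wider sites it lay at 4.93% (2.41% to 9.83%) against 4.47%. The old Kap1 share stood apart for long overlaps: 52 of the 93 sites with over 150 shared bases met an old Kap1 peak (55.9%, 45.8% to 65.6%), while the classes with fewer shared bases lay between 7.66% and 10%. An overlap of over 150 bases needs a Kap1 peak wider than the commonest 150 bp, so this class is not independent of peak width. Seen from the Kap1 side the contrast was smaller. Of the 881 Kap1 partners, 119 (13.5%, 11.4% to 15.9%) met an old Kap1 peak, against 7.63% of all young Kap1 peaks and 5.95% (5.74% to 6.18%) of those without Setdb1 or H3K14ac. For old H3K14ac the partners stood at 5.45% (4.13% to 7.15%) and all young Kap1 peaks at 3.54% (3.38% to 3.71%), and for old Setdb1 at 3.18% (2.21% to 4.56%) and 0.924%. Among Kap1 peaks 150 bp wide the shares were 5.97% (4.46% to 7.95%) for partners and 3.59% (3.41% to 3.77%) for Kap1 peaks alone.

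The number of other Kap1 peaks nearby moved with the same share. A shared site had a median of 5 other young Kap1 peaks at 0.5 to 50 kb (quartiles 2 and 18), close to the median of 4 (quartiles 1 and 13) over all young Kap1 peaks. Over all young Setdb1 peaks the median was 1, but members were chosen by a Kap1 peak and the other Setdb1 peaks were not. With 0 to 2 such Kap1 neighbours, 9 of 267 sites met an old Kap1 peak (3.37%, 1.78% to 6.28%), and with 3 to 5 neighbours 10 of 193 did (5.18%, 2.84% to 9.27%). With 6 to 18 neighbours the count was 29 of 199 (14.6%, 10.3% to 20.1%), and with 19 or more it was 73 of 217 (33.6%, 27.7% to 40.2%). All young Kap1 peaks followed the same order, with 1.47%, 2.58%, 9.55% and 23.7% in the same 4 classes. The interval of all Kap1 peaks lay below that of the shared sites with 0 to 2 (1.31% to 1.66%), with 6 to 18 (8.96% to 10.2%) and with 19 or more neighbours (22.9% to 24.6%), and the intervals overlapped at their ends with 3 to 5 (2.29% to 2.91%). With 0 to 2 neighbours, the lower bound of 1.78% for the shared sites rested on 9 sites. Members were scored over the Setdb1 peak and the Kap1 list over its own peaks, which were mostly narrower. These shares are thus not like for like. The part of width and of local density in these shares was not tested.

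Both factors were listed again in old liver at 7 shared sites (0.799%, 0.388% to 1.64%). That held for 0.108% of all young Setdb1 peaks and 0.221% of all young Kap1 peaks. For the 151 young Setdb1 peaks with both Kap1 and H3K14ac it was 23.8% (17.7% to 31.2%). The 7 shared sites lay in 5 places. On chromosome 3, chr3:106171048-106171364 (317 bp, 265 shared with Kap1) lay 3484 bp from the start of Chil3, a chitinase-like protein of alternatively activated macrophages, and had an old Kap1 peak over 142 bp and an old Setdb1 peak over 251 bp. The second site there, near Chil4, had them over 32 and 137 bp. On chromosome 4, the 2 sites printed above had old Kap1 over 119 and 200 bp and old Setdb1 over 128 and 109 bp. In Usp17le, a gene of a deubiquitinase family, the site lay wholly inside its young Kap1 peak and had 131 bp of old Kap1 and 57 bp of old Setdb1. On chromosome 16, chr16:3236524-3237236 had 409 bp of old Kap1 and 126 bp of old Setdb1, with no coding start site within 200 kb. The last, chr10:57442067-57442367, was the only one of the 7 with an old H3K14ac peak as well, over all its 301 bp, with old Kap1 over 194 bp and old Setdb1 over 107 bp. It had a young H3K14ac peak at 118 bp. Under the same rule applied to the old lists, 198 sites were found, of which 5 (2.53%) met a young shared site, or 0.571% of the 876. Beside this, any old Setdb1 peak was met by 3.42% of the 876 and by 0.869% of all young Setdb1 peaks.

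The 42 sites with an old H3K14ac peak included 17 that also met an old Kap1 peak, beside 13.8% of all shared sites, and 21 were wider than 200 bp, beside 16.2%. A young H3K14ac peak lay within 1 kb of 12, beside 75 of the 876. Among the sites with both, chr4:42897422-42898110 (689 bp), 18584 bp from the start of Phf24, was covered by old Kap1 over its whole length and by old H3K14ac over 267 bp, and chr4:42939902-42940817, in an exon of Phf24, had 546 bp of old Kap1 and 305 bp of old H3K14ac. Both young Kap1 partners there exceeded 1 kb, at 1292 and 1791 bp. Around Chil3 and Chil4, chr3:106142757-106143195 had 430 bp of old Kap1 and 355 bp of old H3K14ac. The median distance from a shared site to young H3K14ac was 25482 bp. It was 84515 bp for young Setdb1 peaks with neither Kap1 nor H3K14ac, and 37996 bp for young Kap1 peaks without Setdb1 or H3K14ac. A young H3K14ac peak lay within 10 kb of 302 shared sites (34.5%, 31.4% to 37.7%). The share was 11.5% (11.2% to 11.7%) for those Setdb1 peaks and 26.7% (26.2% to 27.1%) for those Kap1 peaks. The whole lists keep peaks that lie on H3K14ac, which the rule took from the members. Over all young Kap1 peaks the values were 33490 bp and 30% (29.6% to 30.4%), and over all young Setdb1 peaks the share was 12.7%.

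The 10 sites with the most bases shared with Kap1 were selected on that overlap, which only wide peaks can reach, and 9 of them met an old Kap1 peak, against 13.8% of all members and 40.1% of the wider ones. The widest, chr5:11973064-11974579, lay between genes inside a Kap1 peak of 4473 bp and had 1099 bp of old Kap1 and 500 bp of old H3K14ac. Another of the 10, chr19:61257722-61258735 (1014 bp), lay in the CR555305.1 pseudogene and had 518 bp of old Kap1. In an intron of Tpcn2, the gene of a lysosomal channel, chr7:145234234-145235386 shared 903 of its 1153 bp and had 629 bp of old Kap1. On chromosome 9, chr9:3035686-3036686 shared 987 bp and chr9:3018845-3019519 shared 656 bp, and old Kap1 covered 1001 and 658 bp of them. The remaining sites lay 1945 bp from the start of the pseudogene Vmn2r-ps35 (chr7:7151928-7152572, 645 bp), 702 bp from that of Csf2ra (chr19:61229120-61229763, 644 bp) and 26678 bp from Speer4c (chr5:15740949-15741656, 594 bp), besides the 2 sites at Phf24 described above. The Speer4c site was the one without an old Kap1 peak.

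Most shared sites lay away from start sites. Within 1 kb of an annotated start site were 83 (9.47%, 7.71% to 11.6%), against 4.38% of all young Setdb1 peaks, and 6.93% (6.70% to 7.16%) of all young Kap1 peaks. Inside a gene were 357 (40.8%, 37.5% to 44.0%), against 46.7%. By position, 60 sites lay in exons away from a start (6.85%), 237 in introns (27.1%) and 496 between genes (56.6%), while all young Setdb1 peaks lay in these classes at 4.62%, 39.0% and 52.0%. The Kap1 list as a whole was closer to the members, with 5.67%, 31.6% and 55.8%. The share with an old Kap1 peak was 20.5% (13.2% to 30.4%) at start sites, 18.3% (10.6% to 29.9%) in exons, 11.4% (7.95% to 16.1%) in introns and 13.3% (10.6% to 16.6%) between genes, with overlapping intervals.

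Of the sites within 1 kb of a start, 30 lay at a protein-coding gene (3.42%, 2.41% to 4.85%, against 1.73% of all young Setdb1 peaks and 2.91%, 2.76% to 3.06%, of all young Kap1 peaks). At 8 of these the peak held at least 4 CpG per 100 bp. They were Cdx2, a homeobox factor of the intestinal epithelium (9.50 CpG per 100 bp, 64.0% GC, 113 bp shared with Kap1), Rspo2, a secreted activator of Wnt signalling (9.0, 65.5%, 114 bp), Htra3, a secreted serine protease (10, 71.0%, 135 bp), Tmem215 (9.50, 71.0%, 33 bp), Schip1 (7.00, 66.5%, 74 bp), Gpr37, an orphan receptor of the nervous system (6.5, 68.5%, 114 bp), Gm10775 (5.08, 61.3%, 512 bp) and Dpp6, a partner of potassium channels (5.0, 64.0%, 119 bp). Of these 8 only the Gm10775 site met an old Kap1 peak, over 153 bp. The site at Htra3 lay 356571 bp from the nearest young H3K14ac peak and that at Rspo2 208116 bp, whereas that at Cdx2 lay 14532 bp away. Tfpi2, a secreted protease inhibitor, had a site 63 bp from its start (3.50 CpG per 100 bp, 150 bp shared). The sequences at Cdx2 and Rspo2 above show the CpG in both the capitals and the flanks.

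Receptor genes made up a further 10 of the 30 coding start sites (33.3%, 19.2% to 51.2%), against 19.3% of the 850 young Setdb1 and 20.5% of the 1369 young Kap1 peaks at coding starts, both inside the interval of the members. Olfactory receptors accounted for 7, among them Olfr517 at 11 bp, Olfr1344 at 22 bp and Olfr429 at 142 bp, with 73, 150 and 150 bp shared with Kap1, while Olfr1262 at 603 bp shared only 4 bp. Vomeronasal receptors accounted for 3: Vmn1r70 (23 bp shared, 41 bp of old Setdb1), Vmn1r191 (139 bp) and Vmn1r205 (147 bp). None of these 10 sites met an old Kap1 peak. In all, 7 of the 30 did, beside 20.5% (13.2% to 30.4%) of members at any start site and 13.8% of all members: Bicd1, an adaptor of the dynein motor (341 bp of old Kap1 and 461 bp of old H3K14ac over a peak of 590 bp), the beta-defensin Defb4 (150 bp), Csf2ra, a cytokine receptor subunit (162 bp), Zfp984 (77 bp), Gm10775 and the 2 sites at Gm10719 and Gm10715 on chromosome 9. The other coding start sites were those of Gm7271, Fmo9, Sirpb1c, Gm6020 and Gm10720. The Sirpb1c site lay wholly inside a Kap1 peak of 1166 bp and had 200 bp of old H3K14ac, and the Gm10720 site, printed above, was covered by old Setdb1 over its 200 bp.

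**Figure D3:**
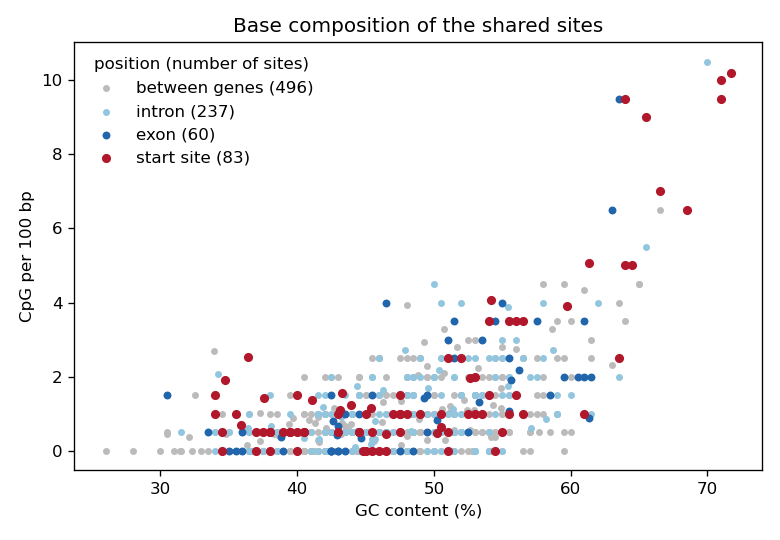
GC content (x axis, %) and CpG per 100 bp (y axis) of the 876 shared sites; each point is 1 site, coloured by position. Most sites lie below 4 CpG per 100 bp, and start sites make up much of the group above, which reaches 10.5.

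In base composition the shared sites were richer in G and C than the young Setdb1 list as a whole, and close to the 151 peaks with both Kap1 and H3K14ac. Their median GC content was 47.5% (quartiles 42.5% and 52.0%), against 44.0% (39.0% and 49.0%) for all young Setdb1 peaks and 46.5% (40.9% and 50.6%) for the 151. The higher median held for sites in introns (47.9% against 44.5%) and between genes (47.0% against 43.5%), and was within 1 percentage point at start sites (47.5% against 46.5%) and in exons (48.8% against 48.5%). At least 4 CpG per 100 bp were found in 29 sites (3.31%, 2.31% to 4.71%), against 1.30% of all young Setdb1 peaks and 9.27% (5.60% to 15%) of the 151. Tandem repeats with units of 1 to 6 bases lay in 60 sites (6.85%, 5.36% to 8.72%), against 8.73% and, for the 151, 15.9% (10.9% to 22.6%). The median share of bases that the reference marks as repeats was 16.8% (interval of the median, not a Wilson interval, 13.5% to 21.0%), against 13.5%, so that the median of all young Setdb1 peaks lay at the lower bound. By position it was higher between genes (23.8% against 18%), in introns (13.5% against 12.5%) and in exons (9.53% against 6.00%), and lower at start sites (2.17% against 11.0%).

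Some sites were made largely of bases that recur elsewhere in the genome. In 56 (6.39%, 4.96% to 8.21%), at least 50% of the words of 31 bases occurred again, against 3.00% of all young Setdb1 peaks and 13.9% (9.28% to 20.3%) of the 151 with both Kap1 and H3K14ac. The count depended on the setting: words of 21 bases gave 21.5% of sites and a threshold of 90% of words gave 0.114%. The median site had no recurring word of 31 bases. Sites that shared such words with each other formed 13 groups of 33 sites, and the largest 3 groups had 4 each. One of them was the block at the start of chromosome 9, in Gm26870, where chr9:3016088-3016287 (98.8% of words recurring), chr9:3018845-3019519 (86.5%), chr9:3006996-3007530 (81.8%) and chr9:3035686-3036686 (78.1%) lie. Multiply mapped reads were dropped upstream, and how many copied places went without a peak for that reason was not tested.

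Short motifs of liver and chromatin factors were sought on both strands in the central 200 bp of each peak. The Zfp57 motif TGCCGC, read by a KRAB zinc finger protein of imprinted loci, lay in 20 shared sites (2.28%, 1.48% to 3.50%), against 1.37% (1.27% to 1.48%) of all young Setdb1 peaks. The Ctcf core AGGGGGC lay in 22 (2.51%, 1.66% to 3.77%), against 1.85%. The Onecut motif ATCAATA lay in 15 (1.71%, 1.04% to 2.81%), against 2.58%, and the FoxA motif TGTTTAC also in 15 (1.71%), against 2.88% (2.74% to 3.04%). For Cebp (TTGCNNAA) the shares were 9.02% and 9.29%, for the glucocorticoid receptor (ACANNNTGT) 6.05% and 6.95%, for Hnf4a (CAAAGTCCA) 0.114% and 0.227%, and for the Srf CArG box 0.685% and 1.23%. For Zfp57 and FoxA the share of all Setdb1 peaks lay just outside the interval of the members, and for the other 6 motifs it lay inside. A match says only that the letters are there, and GC content differs between the sets.

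Zinc finger genes, a family that Kap1 is known to silence, held the sites at a share near that of all young Kap1 peaks. Of 479 zinc finger genes, 10 (2.09%) had a shared site in the gene or within 5 kb, 13 sites in all (1.48%, 0.869% to 2.52%), against 0.777% of all young Setdb1 peaks and 1.36% of all young Kap1 peaks. The share of all genes with such a site was not taken, so the 2.09% has no baseline. The 10 sites inside such genes lay in Zfp985 (3 bp shared with Kap1), Zfp984 (62 bp), Zfp804b (150 bp), Zfp936 (131 and 7 bp), Zfp961 (136 bp), Zfp947 (6 bp), Zfp521 (134 bp) and Zfp950 (179 and 197 bp). An old Kap1 peak was found at 4 of the 13, beside 13.8% of all members and 7.63% of all young Kap1 peaks: the Zfp984 start site (77 bp), a second site 1663 bp from Zfp984 (137 bp), 1 of the 2 in Zfp936 (64 bp) and 1 of the 2 in Zfp950 (105 bp).

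Chemosensory receptor genes also held sites. Of 1397 olfactory receptor genes 25 (1.79%) had one in the gene or within 5 kb, and of 559 vomeronasal receptor genes 24 (4.29%). A site near several genes of a cluster counted for each of them, as the site at Vmn1r191 did for Vmn1r192. The share of all genes with such a site was not taken, so these gene shares have no baseline. Both lists include pseudogenes, which were 4 of the 25 and 8 of the 24. Near olfactory receptor genes, a family of odour receptors of the nose, lay 20 sites (2.28%, 1.48% to 3.50%), against 0.984% of all young Setdb1 peaks and 1.74% of all young Kap1 peaks. Of these 12 lay inside such a gene. They were picked for lying in or near these genes, so the 40.8% of all shared sites inside any gene is not a matched share. An old Kap1 peak was met by 1 of the 20, in an exon of Olfr161 (105 bp), beside 13.8% of all shared sites and 7.63% of all young Kap1 peaks. Near genes of the vomeronasal receptors, which detect pheromones, lay 21 sites (2.40%, 1.57% to 3.64%), against 0.619% and 1.68%. Here too 12 lay inside a gene, such as Vmn2r4 (126 bp shared), Vmn2r52 (147 bp) and Vmn2r16 (70 bp), and 2, both listed for pseudogenes (Vmn2r-ps35 and Vmn2r-ps19), met an old Kap1 peak. For both families, the share over all young Kap1 peaks lay inside the interval of the shared sites.

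Genes of liver metabolism held 0 to 4 sites per list, too few to set apart from all young Setdb1 peaks. Near cytochrome P450 genes lay 4 sites (0.457%, 0.178% to 1.17%), against 0.191% of all young Setdb1 peaks. These were in an intron of Cyp2c67 (103 bp shared), 196 bp from Cyp2b23 (124 bp), 1953 bp from Cyp4f18 (136 bp, the same site as in Zfp961) and 3277 bp from Cyp2ab1 (86 bp), and none met an old peak of Kap1 or Setdb1. Of the genes of apolipoproteins and lipid metabolism only Cpt1a, whose enzyme acts in the entry of fatty acids into mitochondria, had a site (chr19:3387386-3387585), 1652 bp from the gene, which was 1 site of 876 (0.114%, against 0.0812%). It shared 150 bp with young Kap1 and 71 bp with old Kap1. Imprinted genes had 1 site (against 0.146%), over an exon of Snrpn (chr7:59985823-59986363), with 199 bp shared with young Kap1 and 150 bp with old Kap1. Nuclear receptor genes had 1 (against 0.195%), in an intron of Rorb. Near conjugation enzymes and near clustered protocadherins there were 0 of 876, which allows a share of up to 0.342% (3 counts of the total, in place of a Wilson bound), so the 0.0934% and 0.0325% of all young Setdb1 peaks could not be told from these counts of 0.

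The shared sites were unevenly spread over the chromosomes. As a share of Setdb1 peaks they were most frequent on chromosome 7 (84 of 2810, 2.99%, 2.42% to 3.69%), chromosome 4 (76 of 2934, 2.59%, 2.07% to 3.23%) and chromosome 6 (74 of 3205, 2.31%, 1.84% to 2.89%), and least frequent on chromosome 11 (12 of 1771, 0.678%, 0.388% to 1.18%), against 1.78% in all. Chromosome 7 also had the most Kap1 peaks, 4838, and as a share of those its sites came to 1.74%, against 1.86% over chromosomes 1 to 19. By that measure chromosome 19 was highest (3.08%) and chromosome 11 again lowest (1.07%). A single bin of 1 Mb held 15 of the 37 sites and 190 of the 1203 Kap1 peaks of chromosome 19. Beside 13.8% of all shared sites, an old Kap1 peak lay at 17 of the 76 on chromosome 4 and 16 of the 84 on chromosome 7. On chromosome 6 it was 2 of the 74. It was 11 of the 37 on chromosome 19 and 8 of the 28 on chromosome 16, of which 7 and 6 lay in a single bin of 1 Mb each. The counts were 0 of the 51 on chromosome 1 and 0 of the 12 on chromosome 11.

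**Figure D4:**
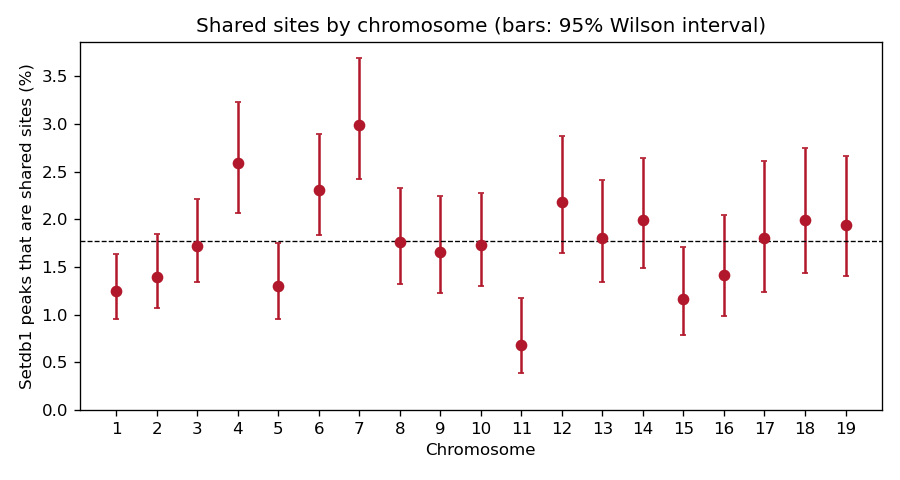
Share of young Setdb1 peaks that are shared sites (y axis, %) on each of chromosomes 1 to 19 (x axis); points are shares, error bars 95% Wilson intervals and the dashed line the share over all 19 chromosomes, 1.78%. Chromosomes 4, 6 and 7 lie above the line with their whole interval and chromosomes 1 and 11, among others, below it.

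Another shared site was within 100 kb of 280 sites (32.0%, 29.0% to 35.1%; 18.4% where 50% of both peaks had to be shared) and within 10 kb of 62, and the median distance to the nearest was 318691 bp. The bin of 1 Mb with the most was chr19:61000001-62000000, the last of that chromosome, with 15 shared sites among 26 Setdb1 and 190 Kap1 peaks, 7 of them with an old Kap1 peak. Over all shared sites that share was 13.8%, and over those with 19 or more Kap1 neighbours within 50 kb it was 33.6%. Its sites lay in or beside Grk5, Zfp950, Gm6020 and Csf2ra. Next came chr8:19000001-20000000, with 11 sites, of which 2 met an old Kap1 peak. The nearest coding start was that of a beta-defensin gene, Spag11a or, for the last sites, 4930467E23Rik. The bin chr2:100000001-101000000 had 9 sites, 2 with an old Kap1 peak and none with a coding start within 200 kb. A further 3 bins had 8 sites each: chr4:121000001-122000000, where the nearest coding starts within 200 kb were those of Col9a2, Gm12886, Gm12887 and Gm12888, with 0 old Kap1 peaks, chr4:147000001-148000000 in a zinc finger cluster (Zfp979, Zfp982, Zfp984, Zfp985), with 5, and chr16:3000001-4000000 near Olfr161 and Zfp263, with 6. In each of these 6 bins the Kap1 list was dense, with 141 to 240 peaks.

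**Figure D5:**
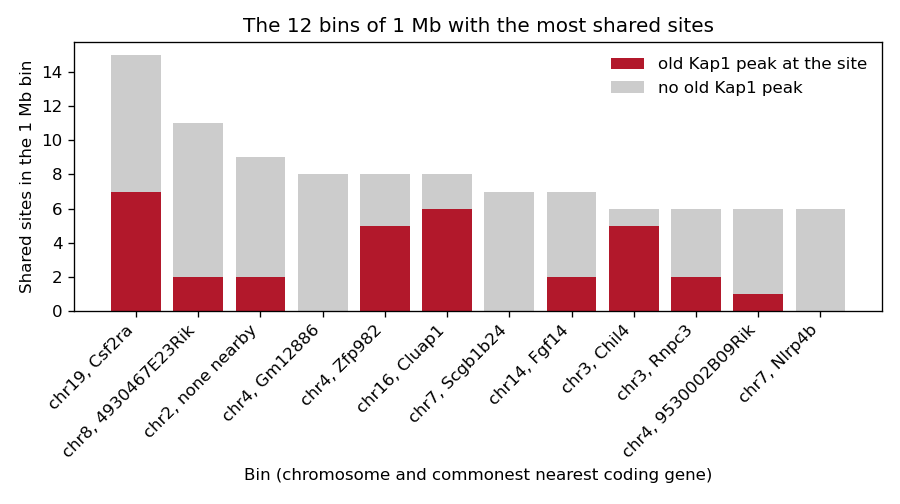
Number of shared sites (y axis) in the 12 bins of 1 Mb that hold the most (x axis, named by chromosome and the commonest nearest coding gene within 200 kb); red marks sites that met an old Kap1 peak and grey those that did not. The bins run from 15 sites down to 6, and the red part ranges from 0 to 7 sites.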

How the data were processed

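Setdb1, Kap1 and H3K14ac were measured by ChIP-Seq in young and old livers. Per the labels and the study's methods, the authors used BWA to map reads to mm10 (GRCm38), dropped duplicate and multiply mapped reads, merged the livers of each group and called peaks with PeakSeq, each antibody at its own threshold. The deposited lists hold chromosome, start and end, and no count, height or score. Starts are printed 1-based.

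A shared site needed 1 bp of overlap, counted with code that was checked against bedtools 2.31.1 (0 of 30 counts differed). Genes were those of GENCODE vM21 and sequences those of NCBI GRCm38. Word counts and tandem repeats were tested on simulated data (40 of 40 planted copies found, 0 of 60 wrongly called). The named sites were the 10 with most shared bases, those with old Kap1 and old Setdb1, those at coding starts, the densest bins and those near genes of 9 lists. Members and lists were chosen with earlier results of these data known. Analyses used Python 3.11.15. With 1 list per group no test was run, and sequential ChIP samples were not analysed here.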

Additional observations from a re-analysis of the deposited data

How the results depend on the processing

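No paired analysis was possible because each group has 1 pooled list, and no liver could be left out. Of 99 alternatives, 70 stayed within the interval of the reported value (for the number of sites, within 1.5 times) and 29 moved. The number of sites fell from 876 to 473 when Kap1 had to cover 50% of the Setdb1 peak and to 419 with 50% of both. The share with old Kap1 (13.8%) became 11.5% with 50% of both, 9.93% with every peak at 200 bp, 11.5% with no H3K14ac within 1000 bp, 21.7% with H3K14ac ignored, 8.72% for sites 200 bp wide, 19.1% with gaps up to 500 bp and 8.45% with 50% covered by the old peak. For old Setdb1 (3.42%), ignoring H3K14ac gave 6.91%, gaps 5.02% and 50% covered 2.40%. For old H3K14ac (4.79%), peaks at 200 bp gave 3.17%, H3K14ac ignored 12.8%, sites 200 bp wide 2.86%, gaps 7.88% and 50% covered 3.42%. A 5 kb window raised the share near start sites to 28.1%. Median GC (47.5%, interval of the median 46.5% to 48.0%) became 48.0% with 50% of the Setdb1 peak covered and 48.0% with 50% of both, values at the upper bound as printed. Recurrence (6.39%) became 8.46% with 50% of the Setdb1 peak covered, 21.5% with words of 21 bases and 0.114% with 90% of words. The share with a neighbour within 100 kb (32.0%) became 26.2% with 50% of the Setdb1 peak covered, 18.4% with 50% of both, 26.6% with no H3K14ac within 1000 bp, 39.5% with H3K14ac ignored, 25.2% for sites 200 bp wide and 7.08% within 10 kb. Ignoring H3K14ac adds the 151 sites the rule left out. The causes were not tested. The shares inside genes and near zinc finger genes, and the repeat-marked share, did not move. Unknown depth limits every absence of an old peak: it may be a peak not called.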

Other observations

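The ends of chromosomes held an unequal part of the sites, a pattern chosen after the values were seen. In the first 4 Mb or the last 1 Mb of a chromosome lay 93 of 876 shared sites (10.6%, 8.75% to 12.8%), against 1.84% (1.73% to 1.97%) of all young Setdb1 peaks, 1.59% of those with neither Kap1 nor H3K14ac and 7.34% (7.10% to 7.57%) of all young Kap1 peaks. The chromosome 9 block and the chromosome 19 bin are among them. In all, 343 genes held a site, 29 at least 2 and 8 at least 3. Fgf14, a growth factor homologue that acts in neurons, held 6 of its 27 young Setdb1 peaks as shared sites, near the end of chromosome 14. Gm26870, in the chromosome 9 block, held 4 of 6, and Adcy2 held 3 of 34, Cntnap2 3 of 73, Hhat 3 of 13, Grk5 3 of 9, Snx14 3 of 8 and Gm8739 3 of 7, against 1.78% of all young Setdb1 peaks. These 8 genes were picked for holding at least 3 sites, so their shares were selected to be high and are a description only.

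The next bins of 1 Mb after those named above held 7 or 6 shared sites each. The counts with an old Kap1 peak stand beside 13.8% of all shared sites. The bin chr7:33000001-34000000, with coding starts of the secretoglobin genes Scgb1b24 and Scgb2b24, held 7, of which 0 met an old Kap1 peak, and the bin of Fgf14 held 7, of which 2 did. Among the bins with 6, that of Chil3 and Chil4 had 5 with an old Kap1 peak, that of Rnpc3, Amy1 and Col11a1 had 2, that of 9530002B09Rik and Cap1 had 1 and that of Nlrp4b and Vmn1r70 had 0. Outside chromosomes 1 to 19 the same overlap gave 13 sites, all on chromosome X. They include a site 495 bp from the start of Dock11 (345 bp wide, 62 bp shared) and 1 in Flna, the gene of the actin cross-linker filamin A (85 bp shared), and 3 of the 13 met an old Kap1 peak.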
